A study of Mus musculus with 8 samples.

Results

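The miR-148 and miR-152 family is a small group of microRNAs (miRNAs, short RNAs that guide Argonaute proteins to messenger RNAs) made from 3 mouse hairpins. It was examined here in small RNA libraries of mouse liver and of liver mitochondria. The members were taken by name: miR-148a-3p, miR-148a-5p, miR-148b-3p, miR-152-3p and miR-152-5p, 5 of the 862 miRNA names in the tables. All 5 were listed in all 8 libraries, as were 319 of the 862 names.

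The animals were male wild-type C57BL/6J mice, housed singly, with an age given as 8 weeks. That cannot be their age at the end of the diets, which ran for 12 weeks. One group ate ad libitum (AL) for 12 weeks. The other was calorie-restricted (CR), with 20% restriction for 1 week and 40% for the following 11 weeks. Whole liver was 1 library per diet, each a pool of 3 RNA samples, and mitochondrial RNA was 3 libraries per diet, taken after differential centrifugation with purified mitoplasts (mitochondria stripped of the outer membrane). The study asked how the diet changes small RNAs in liver and in its mitochondria.

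In each hairpin 1 of the 2 arms is kept much more than the other. The kept arms, miR-148a-3p, miR-148b-3p and miR-152-3p, share a seed, the bases at the 5′ end that pair with target messages, and so share most predicted targets. The family is known for repressing the DNA methyltransferase Dnmt1, and miR-148a for repressing the low-density lipoprotein receptor and the cholesterol exporter ABCA1 in liver. miR-148a is among the most abundant miRNAs of hepatocytes, and it is also abundant in pancreatic acinar cells. All values are RPM, the reads of a miRNA scaled to a library total of 1000000, with no scaling for length. Mature members are 21 to 24 bases long.

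The mature sequences of the shared-seed arms are shown because their near identity decides how reads could be told apart. Capitals mark the seed, bases 2 to 8 from the 5′ end.
miR-148a-3p: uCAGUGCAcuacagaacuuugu
miR-148b-3p: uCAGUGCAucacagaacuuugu
miR-152-3p: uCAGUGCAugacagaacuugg
miR-148a-3p and miR-148b-3p have the same base at 20 of 22 positions and differ by C9U and U10C, counted from the 5′ end of miR-148a-3p. miR-152-3p differs from miR-148a-3p by C9U, U10G and U20G and ends 1 base earlier. Only these 3 of the 862 deposited names, and only these 3 of 1679 mature names in the RefSeq table used here, carry this seed. The mismatches allowed when reads were assigned are not given in the sources used here, so a share of miR-148b-3p or miR-152-3p reads that belongs to the far more abundant miR-148a-3p was not tested.

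The hairpins are shown to place the weaker arms. Capitals mark the arms, the 5p arm first.
Mir148a: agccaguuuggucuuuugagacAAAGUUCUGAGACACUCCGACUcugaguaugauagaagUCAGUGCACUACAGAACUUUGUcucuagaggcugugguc
Mir148b: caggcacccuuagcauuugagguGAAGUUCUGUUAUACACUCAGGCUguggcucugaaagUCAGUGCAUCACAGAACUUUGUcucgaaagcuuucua
Mir152: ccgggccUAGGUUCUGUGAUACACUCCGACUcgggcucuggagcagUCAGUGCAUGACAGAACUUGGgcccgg
Sequences and positions are from RefSeq (GRCm38.p6), and all 5 members matched it with the deposited sequence. Mir148a lies at chr6:51269812-51269910 on the minus strand and overlaps no other gene of GENCODE M21. Mir148b lies at chr15:103285125-103285221 on the plus strand in an intron of Copz1, and Mir152 at chr11:96850393-96850465 on the plus strand in an intron of Copz2. Copz1 and Copz2 are paralogous genes for the zeta subunit of the coatomer, a coat of transport vesicles, and both run in the direction of the hairpin inside them.

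The libraries held 1070762 to 1577691 miRNA reads in mitochondria and 2431564 (AL) and 3242002 (CR) in the pools. Whether each mitochondrial library stands for another animal is not stated in the labels, and the p-values below therefore speak for the spread of the libraries, which may be technical. Hepatocyte markers took 331910 to 617576 RPM in the mitochondrial libraries, with miR-885 not listed in any. CR mitochondrial replicate 2 stood apart, with 25.2% of its reads from miR-122 against 38.0% to 58.1% in the other mitochondrial libraries. It also held 98.9 RPM of pancreas markers, against 2.11 to 5.48 RPM in those libraries. In the pools miR-122 took 25.5% (AL) and 26.3% (CR) of reads, and pancreas markers 6.99 (AL) and 2.47 RPM (CR). The miR-122 share of this replicate thus lay near the pools, and its pancreas sum did not. Of 5 pancreas arms listed, 1 was in all libraries. The list joins markers of acinar and islet cells, and how the 98.9 RPM split between these is not given here. The purity of the mitochondrial fraction was not analysed here.

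miR-148a-3p made up nearly the whole family. It held 95.2% to 98.8% of the family's reads in every library and ranked 2 or 3 among all miRNAs in each. In AL mitochondria it stood at 104173, 72352 and 127524 RPM, and in CR mitochondria at 102379, 176362 and 85292 RPM. The pools held 108300 RPM (AL) and 199930 RPM (CR). The 2 highest libraries were the CR pool and CR mitochondrial replicate 2, and the AL and CR mitochondrial ranges overlapped.

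The other kept arms were far lower. miR-152-3p stood at 2522, 2989 and 2050 RPM in AL mitochondria, at 1961, 1593 and 1235 RPM in CR mitochondria, and at 1655 (AL) and 1752 RPM (CR) in the pools. All 3 CR mitochondrial libraries lay below all 3 AL mitochondrial libraries. miR-148b-3p stood at 959, 542 and 657 RPM in AL mitochondria, at 511, 421 and 240 RPM in CR mitochondria, and at 1343 (AL) and 1618 RPM (CR) in the pools. Here too no CR mitochondrial library reached the AL range, and both pools were above all mitochondrial libraries.

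The weaker arms were rare. miR-148a-5p stood at 86.8, 71.2 and 93.5 RPM in AL mitochondria and 48.3, 98.9 and 47.6 RPM in CR mitochondria, with 167 (AL) and 303 RPM (CR) in the pools. CR replicate 2 was the highest mitochondrial library and the other CR libraries the lowest, and both pools lay above all of them. miR-152-5p rested on 14 to 37 reads in mitochondria. It stood at 14.8, 19.2 and 17.6 RPM (AL) and 14.2, 23.5 and 13.1 RPM (CR), and at 14.0 (AL) and 28.4 RPM (CR) in the pools, with all groups overlapping. The remaining arm, miR-148b-5p, is no member by the rule and was as rare, at 7.47 to 29.8 RPM in mitochondria and 35.8 (AL) and 20.7 RPM (CR) in the pools.

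**Figure D1:**
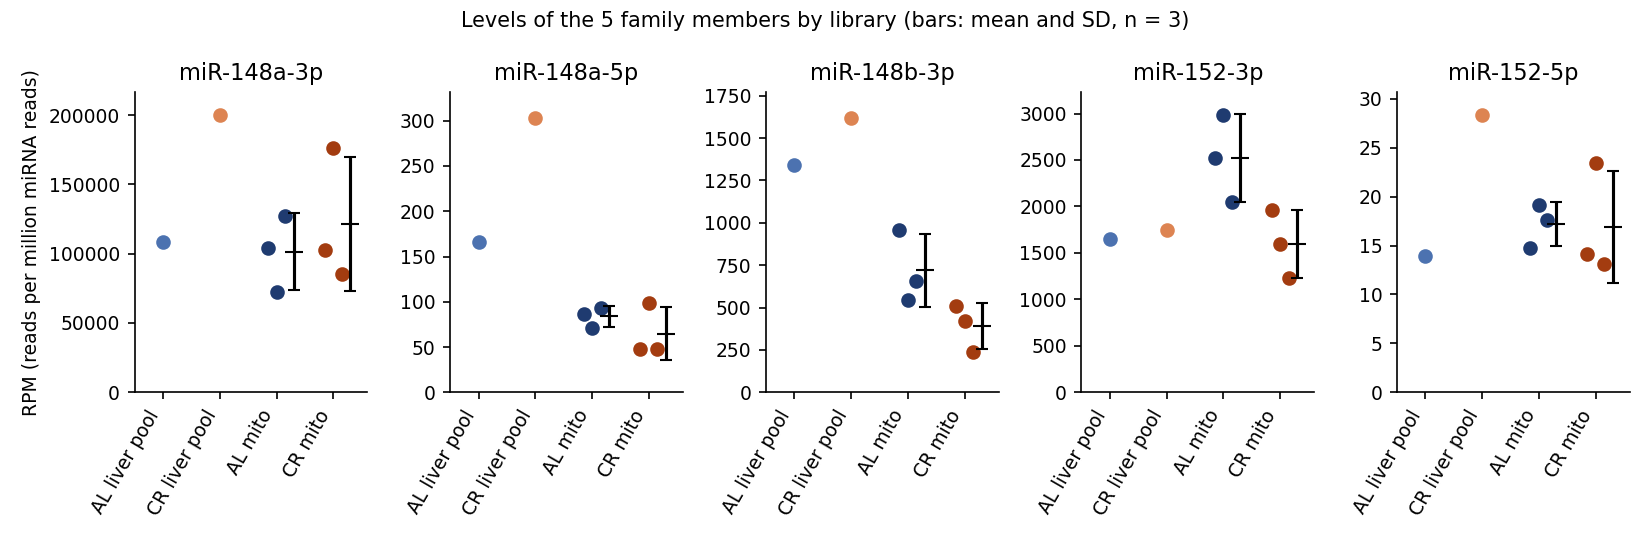
RPM of each member (linear axes from 0, a scale of its own per panel) in the AL and CR whole-liver pools and in the AL and CR mitochondrial libraries (mito); points are libraries and bars are the mean and SD of 3 libraries. miR-148a-5p and miR-148b-3p sit higher in both pools than in any mitochondrial library, and CR lies below AL without overlap for miR-148b-3p and miR-152-3p in mitochondria.

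The order of the levels was the same in 8 of 8 libraries: miR-148a-3p, miR-152-3p, miR-148b-3p, miR-148a-5p, miR-152-5p. In mitochondria miR-152-3p, at least 1235 RPM, did not overlap miR-148b-3p, at most 959 RPM. Among all miRNAs of AL mitochondria, miR-148a-3p (101350 ± 27694 RPM, SD, n = 3) stood below miR-122-5p (415777 ± 36831 RPM, SD, n = 3) without overlap. It was not separated by its range from the next, miR-21a-5p (81553 ± 27257 RPM, SD, n = 3). miR-152-3p (2520 ± 469 RPM, SD, n = 3) stood between let-7b-5p and miR-7a-5p, miR-148b-3p (719 ± 216 RPM) between miR-29c-3p and miR-340-5p, miR-148a-5p (83.8 ± 11.4 RPM) between miR-130a-3p and miR-342-3p, and miR-152-5p (17.2 ± 2.23 RPM) between miR-1843b-3p and miR-223-3p. Each of these 8 neighbours overlapped its member in range. Libraries recover different sequences with different efficiency, so a ratio of 2 miRNAs is firmer as a comparison between libraries than as a ratio of molecules.

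Together the members took 11.1% of the reads of the AL pool (95% Clopper-Pearson interval 11.1% to 11.2%, counting error only) and 20.4% of the CR pool (20.3% to 20.4%). In mitochondria they took 10.5% ± 2.73 (SD, n = 3) under AL and 12.3% ± 4.86 (SD, n = 3) under CR, with 17.9% in CR replicate 2. Since miR-148a-3p is so large a share of a library, its own rise or fall moves the RPM of all other names.

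No member passed the diet test in mitochondria. By limma-trend 0 of 5 members had an adjusted p under 0.05, where 0.512% of the 391 miRNAs tested did (0.256% higher and 0.256% lower), and edgeR and DESeq2 also called 0. At an unadjusted p under 0.05 stood 1 member, miR-148b-3p, and 13.3% of all miRNAs tested. Differences below are CR less AL on the log2(RPM + 1) scale, which understates the change of rare miRNAs. Over all 391 the median was -0.17, or 0.03 with DESeq2 size factors.

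The mean of miR-148b-3p was 719 ± 216 RPM in AL and 391 ± 138 RPM in CR mitochondria (SD, n = 3 each), a log2 difference of -0.91 (SE 0.36, 95% interval -1.67 to -0.14; limma-trend adjusted p = 0.299). The difference lay below 0 in all 18 alternatives run, from -1.13 to -0.59, with the adjusted p between 0.135 and 0.642. miR-152-3p averaged 2520 ± 469 and 1596 ± 363 RPM (SD, n = 3 each), with a log2 difference of -0.67 (SE 0.33, interval -1.36 to 0.03, limma-trend adjusted p = 0.409), and from -0.83 to -0.42 over the 18 alternatives. For these 2 members the CR libraries lay wholly below the AL libraries, as they did for 14.3% of all miRNAs tested, while the reverse held for 0 members and 5.12% of all. Without CR replicate 2 the differences were -0.99 for miR-148b-3p and -0.68 for miR-152-3p.

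The mean of miR-148a-3p was 101350 ± 27694 RPM in AL and 121344 ± 48407 RPM in CR mitochondria (SD, n = 3 each), with a log2 difference of 0.23 (interval -0.72 to 1.17; limma-trend adjusted p = 0.878). That value rests on 2 libraries: it was -0.08 without CR replicate 2 and 0.0028 without AL replicate 2. miR-148a-5p averaged 83.8 ± 11.4 and 64.9 ± 29.4 RPM (SD, n = 3 each), with a log2 difference of -0.44 (interval -1.24 to 0.36; limma-trend adjusted p = 0.658), and -0.78 without CR replicate 2. miR-152-5p averaged 17.2 ± 2.23 and 16.9 ± 5.71 RPM (SD, n = 3 each), with a log2 difference of -0.06 (interval -0.96 to 0.84; limma-trend adjusted p = 0.971) whose sign turned under 9 of 18 alternatives, among them all 4 other scalings, and which was -0.31 without CR replicate 2. The intervals of these 3 members span falls and rises alike, and differences within them were not detectable with 3 libraries per diet.

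Of the marker miRNAs of other cells, 1 passed the diet test in mitochondria by limma-trend, and the summed level of 1 list did not overlap between the diets. Leukocyte and Kupffer cell markers, 10 arms of 5 miRNAs of which 7 were listed in all libraries, summed to 8035 to 11013 RPM under AL and 2962 to 4842 RPM under CR, mostly miR-146a-5p (9595 and 3600 RPM on average). Stellate cell and fibroblast markers, 10 arms of which 9 were listed in all libraries, summed to 35622 to 47454 and 25661 to 44663 RPM. By limma-trend 1 of 9 tested stellate markers fell (miR-199a-3p, log2 difference -1.64) and 0 of 8 tested leukocyte markers passed, with 0 called by edgeR and DESeq2. At an unadjusted p under 0.05 stood 3 of the 8 leukocyte markers, and 13.3% of all miRNAs tested. Of these 3, miR-146a-5p (-1.43) and miR-142a-5p (-0.92) lay below 0 and miR-150-5p (1.02) above. The stellate sums overlapped between the diets. Endothelial markers summed to 6694 to 9437 RPM under AL and 6707 to 18066 RPM under CR, and erythroid markers to 69.6 to 125 and 63.5 to 116 RPM, again with overlap. By the same test 0 markers of hepatocytes (6 tested), endothelium (2), erythroid cells (5) and pancreas (1) passed. The pancreas marker tested, miR-375-3p (log2 difference 1.98), was called higher by edgeR. The part of these markers, and of the pancreas markers of CR replicate 2, in the members' values was not tested. In bulk RNA, fewer cells of a type and less RNA per cell cannot be told apart. For these mitochondrial libraries the purity of the fraction, not analysed here, could bear on the sums as well.

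Mitochondria differed from whole liver in 2 members, both lower. All 8 libraries entered a fit that also held the diet, and the pools, 1 per diet, were taken to vary as the mitochondrial libraries do. By limma-trend 2 of 5 members fell and 0 rose, where 32.1% of the 417 miRNAs tested were called, 21.6% lower and 10.6% higher. With so many calls over all miRNAs, 2 of 5 is not read as a property of the family. The split of calls over all miRNAs, 44 higher and 90 lower, was 62 and 72 with DESeq2 size factors and 97 and 70 with edgeR. The median log2 difference of all 417 was -0.31, or -0.08 with DESeq2 size factors.

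miR-148a-5p fell 3.12-fold in mitochondria, a log2 difference of -1.64 (SE 0.39, interval -2.45 to -0.83, limma-trend adjusted p = 0.00303). miR-148b-3p fell 2.89-fold, a log2 difference of -1.53 (SE 0.37, interval -2.30 to -0.76, limma-trend adjusted p = 0.00363). For both, all 6 mitochondrial libraries lay below both pools, as they did for 27.1% of all miRNAs tested, and 0 members and 14.9% of all lay wholly above them. Both were called lower in 18 of 18 alternatives, other scalings included, with log2 differences from -1.76 to -1.23 for miR-148a-5p and from -1.67 to -1.10 for miR-148b-3p. Relative to the mitochondrial mean of the same diet, the AL pool held 1.99 times and the CR pool 4.66 times as much miR-148a-5p, and 1.87 and 4.14 times as much miR-148b-3p.

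Between the fractions the markers of other cells differed in both directions. Leukocyte and Kupffer cell markers summed to 1033 (AL) and 714 RPM (CR) in the pools, below all mitochondrial libraries, but that sum is mostly miR-146a-5p (log2 difference 3.54), the 1 of 8 tested that was called higher. The median of the 8 was -0.44, below that of all miRNAs, with miR-223-3p at -0.71 and miR-155-5p at -1.28. Stellate cell markers summed to 14709 (AL) and 15881 RPM (CR) in the pools, again below all mitochondrial libraries. Yet 3 of 9 tested were called lower and 1 higher, where 21.6% of all miRNAs tested were called lower and 10.6% higher. Endothelial markers summed to 19607 (AL) and 14978 RPM (CR), with 1 of 2 called lower by limma-trend and 0 with DESeq2 size factors. Erythroid markers had a median of 0.74, with 0 of 6 called by limma-trend and 3 called higher by both edgeR and DESeq2. Over all miRNAs more also rose with edgeR, as given above, and the share with DESeq2 is not given here. Of 6 hepatocyte markers 1 was called higher (miR-192-3p, 3.08) and 1 lower (miR-194-2-3p, -1.99), and of 2 pancreas markers 0 were called by limma-trend, edgeR or DESeq2. The part of these markers in the members' values was not tested.

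The other members did not pass against whole liver. For miR-148a-3p the log2 difference was -0.46 (interval -1.35 to 0.42; limma-trend adjusted p = 0.418), and it was -0.15 with DESeq2 size factors. For miR-152-3p it was 0.22 (interval -0.46 to 0.89; limma-trend adjusted p = 0.623), and 0.53 with DESeq2 size factors (limma-trend adjusted p = 0.181). For miR-152-5p it was -0.24 (interval -1.13 to 0.64; limma-trend adjusted p = 0.665), and above 0 with all 4 other scalings.

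**Figure D2:**
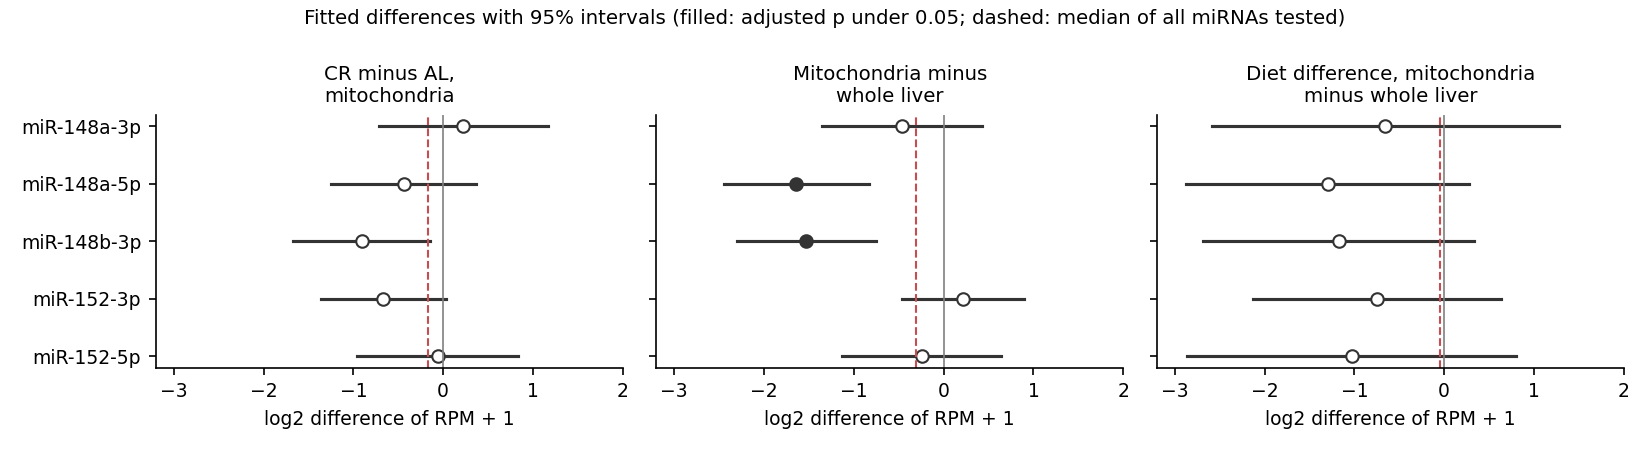
Fitted log2 differences of RPM + 1 (x axis) of the 5 members with 95% intervals, for CR minus AL in mitochondria (left), mitochondria minus whole liver (middle) and the diet difference in mitochondria minus that in whole liver (right); filled points have an adjusted p under 0.05 and the dashed line is the median of all miRNAs tested. Only miR-148a-5p (-1.64) and miR-148b-3p (-1.53) are filled, both in the middle panel.

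Ratios of 2 members within a library do not depend on how the library is scaled. Percentages and folds below are of RPM, and tests are on the log2 ratio with 1 RPM added to each member. The arm ratio of the Mir148a hairpin, miR-148a-5p as a percentage of miR-148a-3p, was 0.154% in the AL pool and 0.151% in the CR pool. It was 0.0833%, 0.0985% and 0.0733% in AL mitochondria and 0.0472%, 0.0561% and 0.0558% in CR mitochondria. All mitochondrial libraries lay below both pools, and CR mitochondria lay below AL mitochondria without overlap. No ratio outside the family was taken. How common such a separation is among other hairpins or pairs of miRNAs was therefore not tested, here or for the ratios below. The log2 ratio was lower by 1.18 in mitochondria than in the pools on average (-10.53 ± 0.40, SD, n = 6, against -9.35). The exact two-sided permutation test gave p = 0.0714, and 0.179 adjusted over 5 ratios. This test doubles the 1-sided p, and 0.0714 is the smallest it gives with 6 against 2 libraries. Between the diets in mitochondria the log2 ratio was -10.19 ± 0.22 under AL and -10.86 ± 0.14 under CR (SD, n = 3 each), with an exact two-sided permutation p = 0.1, the smallest that 3 against 3 allow, and 0.25 adjusted over 5 ratios.

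The Mir152 hairpin did not show that separation of the groups. miR-152-5p was 0.845% (AL) and 1.62% (CR) of miR-152-3p in the pools, 0.586% to 0.857% in AL mitochondria and 0.722% to 1.47% in CR mitochondria. These groups overlapped. The log2 ratio differed by -0.46 between mitochondria and pools, the direction of Mir148a, and by 0.61 between the diets, the opposite direction. The exact two-sided permutation p was 0.357 between mitochondria and pools and 0.2 between the diets. The low reads of miR-152-5p limit the precision of its ratio.

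Among the kept arms, miR-152-3p and miR-148b-3p parted between the fractions. miR-152-3p was 1.23-fold (AL) and 1.08-fold (CR) of miR-148b-3p in the pools. In mitochondria it was 2.63-fold, 5.52-fold and 3.12-fold under AL and 3.84-fold, 3.79-fold and 5.14-fold under CR. The log2 ratio was higher in mitochondria by 1.74 on average, and by 1.53 within AL and 1.96 within CR. All 6 mitochondrial libraries lay above both pools, with an exact two-sided permutation p = 0.0714, the smallest that this test gives here, and 0.179 adjusted over 5 ratios. The diets overlapped in this ratio (exact two-sided permutation p = 0.6).

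miR-148b-3p was 1.24% (AL) and 0.809% (CR) of miR-148a-3p in the pools, 0.921%, 0.748% and 0.515% in AL mitochondria and 0.499%, 0.239% and 0.281% in CR mitochondria. The CR mitochondrial libraries lay below the AL ones without overlap, although AL replicate 3 and CR replicate 1 were close. The log2 ratio differed by -1.13 between the diets (exact two-sided permutation p = 0.1, 0.25 adjusted over 5 ratios) and by -1.07 between mitochondria and pools (p = 0.143 by the same exact test). miR-152-3p was 0.876% to 1.53% of miR-148a-3p in the pools and 0.904% to 4.13% in mitochondria, with overlap in both comparisons and exact two-sided permutation p of 0.286 and, between the diets, 0.2.

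**Figure D3:**
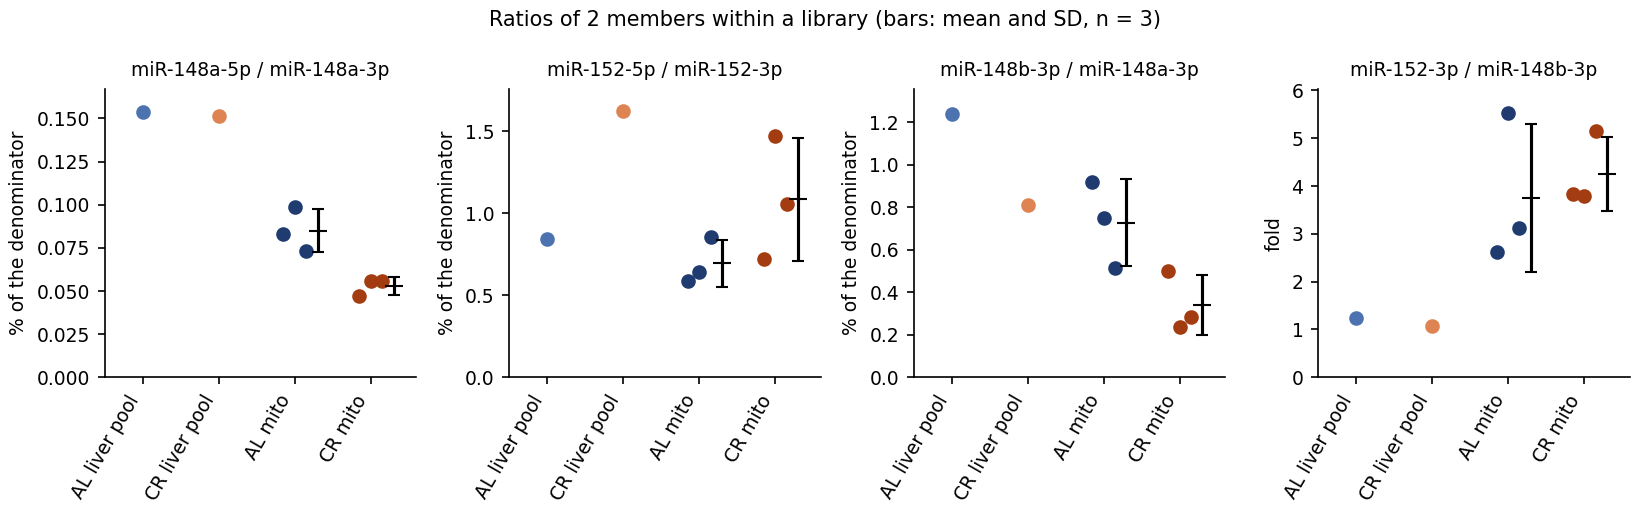
Ratio of 2 members within each library (linear axes from 0; percent of the denominator in the first 3 panels, fold in the last) in the pools and the mitochondrial libraries; points are libraries and bars are the mean and SD of 3 libraries. The Mir148a arm ratio is 0.151% to 0.154% in the pools and at most 0.0985% in mitochondria, and miR-152-3p over miR-148b-3p is at most 1.23 in the pools and at least 2.63 in mitochondria.

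In whole liver, both arms of miR-148a were higher in the CR pool by nearly the same factor. miR-148a-3p had 263339 reads in the AL and 648173 in the CR pool, a ratio of RPM of 1.85 (95% exact interval 1.84 to 1.85). miR-148a-5p had 405 and 981 reads, a ratio of 1.82 (1.62 to 2.04). miR-152-5p had a ratio of 2.03 (1.36 to 3.10) on 34 and 92 reads. miR-148b-3p was at 1.21 (1.15 to 1.26) and miR-152-3p at 1.06 (1.02 to 1.10), nearest to equal. With 1 RPM added, 0 of 5 members were at least 2-fold higher, where 4.12% were of the 243 miRNAs that reached 10 RPM in 1 or both pools. At least 1.5-fold higher were 3 members and 9.05% of these miRNAs. The main mark was 2-fold, and the count of members depends on the mark chosen, so the 1.5-fold count is descriptive only. On that scale the log2 ratios were 0.88, 0.86, 0.97, 0.27 and 0.08 in the order given, against a median of -0.22 over the 243. With DESeq2 size factors they were 1.15, 1.13, 1.23, 0.54 and 0.35, against a median of 0.052. The count at least 2-fold higher then turned from 0 to 3 of 5 members, where 7% of the 243 were. The intervals cover counting error only. With 1 pool per diet these are differences between 2 libraries, with no replicate check.

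**Figure D4:**
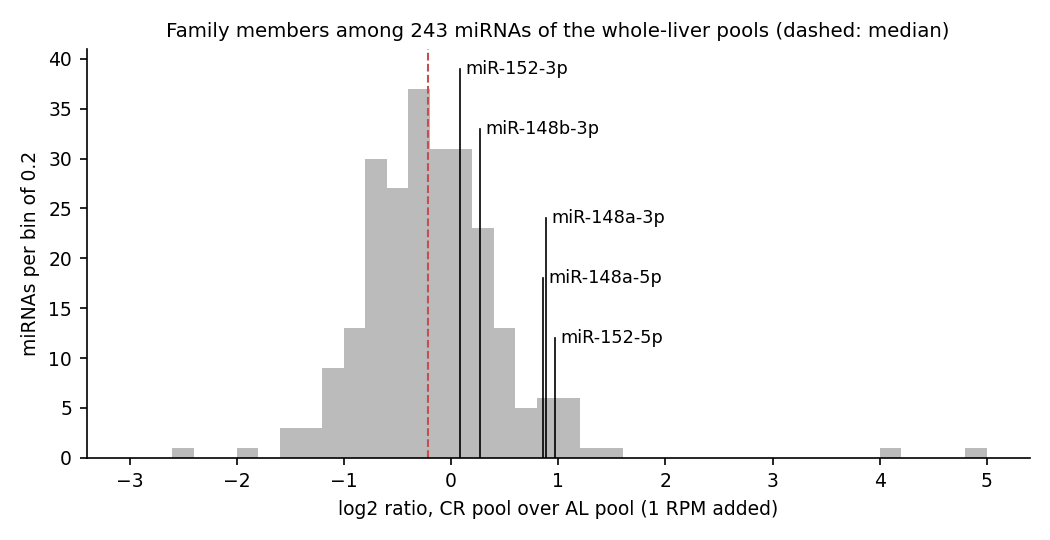
Histogram of the log2 ratio of the CR over the AL whole-liver pool (x axis, 1 RPM added) for 243 miRNAs (y axis, miRNAs per bin), with the 5 members marked by lines and the median (-0.22) dashed. Both miR-148a arms (0.88 and 0.86) and miR-152-5p (0.97) lie toward the upper end, and miR-148b-3p (0.27) and miR-152-3p (0.08) nearer the middle.

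The diet differences of the members in mitochondria and in the pools were set against each other by the interaction of diet and fraction. By limma-trend 0 of 5 members passed, as did 0% of the 417 miRNAs tested, with 0 members and 1.2% of all miRNAs at an unadjusted p under 0.05, and edgeR and DESeq2 called 0. The differences, mitochondria minus whole liver, were -0.66 for miR-148a-3p, -1.30 for miR-148a-5p, -1.18 for miR-148b-3p, -0.75 for miR-152-3p and -1.03 for miR-152-5p, against a median of -0.05 over all miRNAs. All 5 lie below 0, as did 53.5% of all miRNAs tested. All 5 intervals span 0, with limma-trend adjusted p = 0.998 for each. The pools, 1 per diet, give no spread of their own. The intervals and p-values therefore rest on the spread of the mitochondrial libraries alone. The members share the same 2 pools, so their common sign does not count as 5 observations.

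The 3 kept arms differed from each other in pattern across the libraries about as much as from the median other miRNA. As a measure of likeness, each miRNA's log2(RPM + 1) was centred on its mean over the 8 libraries, and the root mean square difference of 2 miRNAs was taken. It was 0.77 between miR-148a-3p and miR-148b-3p, 0.68 between miR-148a-3p and miR-152-3p and 0.82 between miR-148b-3p and miR-152-3p. Over all 10 pairs of members it ran from 0.31, between miR-148a-3p and miR-152-5p, to 0.93, between miR-148a-5p and miR-152-3p. It was 0.46 between miR-148a-5p and miR-148b-3p, 0.49 between the arms of Mir152 and 0.60 between the arms of Mir148a. The median over 102 other miRNAs with at least 100 RPM on average was 0.71 for miR-148a-3p, 0.68 for miR-148b-3p and 0.72 for miR-152-3p. Outside the family, the closest miRNAs were miR-26b-5p (0.30), miR-30e-5p (0.34) and miR-122-3p (0.35) for miR-148a-3p. They were let-7d-5p (0.23), let-7a-5p (0.24) and miR-181a-5p (0.33) for miR-148b-3p, and miR-1839-5p (0.23), miR-28a-3p (0.25) and let-7b-5p (0.30) for miR-152-3p. The 8 values share the depth and composition of their libraries.

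Other miRNAs known to act on lipoprotein and cholesterol genes gave no diet call in mitochondria. Of 14 such miRNAs (among them miR-33, which represses ABCA1, and miR-122) miR-301b was not listed and the others had 26 arms. Of these, 0 of 20 tested arms passed by limma-trend, edgeR or DESeq2. At an unadjusted p under 0.05 by limma-trend stood 3 of them, and 13.3% of all miRNAs tested. Their median log2 difference was -0.21, against -0.17 over all miRNAs tested. The smallest p had miR-96-5p (1.67), miR-185-5p (-0.99), miR-30c-1-3p (-1.09) and miR-106b-3p (-0.87), with limma-trend adjusted p from 0.108 to 0.499. Against whole liver 8 of 22 tested arms fell and 1 rose, where 21.6% of all miRNAs tested fell and 10.6% rose. With DESeq2 size factors 5 arms fell and 2 rose. Over all miRNAs fewer fell and more rose with these factors too, as given above. The median was -0.80 against -0.31 over all miRNAs (-0.55 against -0.08 with DESeq2 size factors). The log2 differences of those that fell were -2.88 for miR-30c-2-3p, -1.96 for miR-27b-3p, -2.27 for miR-106b-3p, -1.52 for miR-128-3p, -1.24 for miR-30c-5p, -1.35 for miR-96-5p, -1.36 for miR-27a-5p and -1.52 for miR-27b-5p. miR-19b-3p rose by 1.90.

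miRNAs known to repress DNA methyltransferases beside this family (miR-29a, miR-29b, miR-29c, miR-101a, miR-101b and miR-143) gave no diet call either. By limma-trend 0 of 13 tested arms passed, with 0 at an unadjusted p under 0.05 and 0 by edgeR and DESeq2, and the median was 0.14. The smallest p had miR-143-5p (-0.73), miR-29a-3p (-0.60), miR-101a-5p (0.98) and miR-29b-3p (0.52). Against whole liver 4 of 13 rose and 0 fell, where 10.6% of all miRNAs tested rose and 21.6% fell, with a median of 0.77 against -0.31. With DESeq2 size factors 6 rose, with DESeq2 7 and with edgeR 8, and 0 fell in each. In that order the median was 1.08 against -0.08 over all miRNAs, 1.12 against 0.01 and 1.24 against 0.13. Over all miRNAs more also rose with DESeq2 size factors and edgeR, as given above, so 10.6% is no measure for these counts. The share with DESeq2 is not given here. The 4 that rose by limma-trend were miR-29a-5p (log2 difference 3.01), miR-29c-3p (2.25), miR-143-3p (1.48) and miR-29b-3p (0.98). No member of the miR-148 and miR-152 family was called higher there. Which list moved more was not tested.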

How the data were processed

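Small RNA was measured in 8 libraries, grouped by the labels' titles. The deposited values are RPM, the reads of each listed miRNA scaled by the authors to a library total of 1000000, although the column names say tpm. Reads were mapped with Bowtie against mm9, per the submitters' processing notes, and the version and the assignment to miRNA names are not given in the sources used here. Whole reads were recovered from the deposited RPM: divided by the worth of 1 read, 4141 of 4141 values (100%) came out whole within 0.01 read. Depending on the library, 1 read equalled 0.308 to 0.934 RPM.

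The main test was two-sided limma-trend in R 4.3.3 with limma 3.58.1, on log2 of RPM plus a pseudocount of 1. A miRNA entered a fit when 3 or more of its libraries reached 1 RPM, with Benjamini-Hochberg adjustment over all miRNAs tested and a threshold of 0.05. It was also run on simulated data with known differences in the less abundant miRNAs, and the outcome is not given here. The abundant miRNAs stayed unchanged there, so the simulation does not cover a shift of scale by miR-122 or miR-148a-3p. edgeR 4.0.16 (quasi-likelihood, TMM) and DESeq2 1.42.0 were run on recovered reads as alternatives, beside other pseudocounts, filters, scalings, libraries left out in turn and a replicate block, none of which was added later. edgeR called 7 miRNAs in the mitochondrial diet comparison. Ratios were tested by exact permutation (Python 3.11.15, scipy 1.17.1, numpy 2.4.6, pandas 2.3.3, and matplotlib 3.10.9 for plots).

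Named miRNAs were the 5 members, the neighbours in level, the 3 miRNAs of closest pattern for each 3p member, and for the 2 pathway lists 4 by p with those that passed. The marker lists were hepatocytes, stellate cells with fibroblasts, leukocytes with Kupffer cells, endothelium, erythroid cells and pancreas. Members and lists were chosen with earlier results of these data known. miR-148b-5p, miR-122 and the single cell type markers were named after their values were seen.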

Additional observations from a re-analysis of the deposited data

How the results depend on the processing

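No call of a member changed under any of the 18 alternatives of each fit. In the mitochondrial diet comparison the count over all miRNAs went from 2 to 10 with no filter, 8 with a filter of 10 RPM, 5 with TMM or DESeq2 size factors and with DESeq2, 4 when scaled without miR-122 or also without the members, 7 with edgeR and 1 with robust moderation. Leaving out 1 library gave 0 to 6, with 6 without AL replicate 1, 0 without AL replicate 2, CR replicate 1 or CR replicate 2, and 1 without AL replicate 3 or CR replicate 3. The cause was not tested. The interaction gave 129 calls in place of 0 with no filter, where all 862 names were tested. Against whole liver the count of 134 (44 higher, 90 lower) stayed within 1.5 times, with 62 higher and 72 lower with DESeq2 size factors and 97 higher and 70 lower with edgeR.

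The sign of miR-152-5p turned. Its diet difference in mitochondria was 0.14 with TMM, 0.17 with DESeq2 size factors, 0.077 scaled without miR-122, 0.16 also without the members, 0.14 with edgeR and 0.19 with DESeq2, and -0.31 to 0.090 with 1 library left out. Against whole liver it was 0.032, 0.047, 0.15, 0.13, 0.16 and 0.026 in the same order. The diet difference of miR-148a-3p was -0.079 to 0.45 with 1 library left out. In the pools the log2 ratios with TMM and DESeq2 size factors were 1.14 and 1.15 for miR-148a-3p (0.90 scaled without miR-122), 1.11 and 1.13 for miR-148a-5p, 0.52 and 0.54 for miR-148b-3p and 0.34 and 0.35 for miR-152-3p. All ratios of members kept their direction.

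Same-numbered mitochondrial libraries had correlated deviations of 0.36, 0.08 and 0.11, and unlike-numbered ones of -0.29 to 0.22. AL replicates 1 and 3 correlated best with their own number, and AL replicate 2 with CR replicate 3 (0.22). These values do not settle whether the numbers pair the libraries, and the main fit did not pair them. With the replicate block 3 miRNAs were called in the diet comparison (1 higher, 2 lower), 154 against whole liver and 0 in the interaction, and miR-148b-3p had an adjusted p = 0.135 by limma. Depth limits mainly miR-152-5p.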
